A study of Mus musculus with 40 samples.

Results

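Srf, Mrtfa and Mrtfb encode serum response factor (SRF) and its 2 broadly expressed myocardin-related coactivators, MRTF-A and MRTF-B. They were taken by mouse gene symbol, and made up 3 of the 51789 genes in the count table. Srf (ENSMUSG00000015605) lies on the minus strand at chr17:46548329-46556175 of the mouse build GRCm38 (mm10), Mrtfa (ENSMUSG00000042292) on the minus strand at chr15:81012281-81190757, and Mrtfb (ENSMUSG00000009569) on the plus strand at chr16:13256481-13417529. All 3 are annotated as protein coding. The annotated span of Srf overlaps Gm26904 and Mir6976, that of Mrtfa overlaps Gm25131, Gm49522 and Sgsm3, and that of Mrtfb overlaps the antisense gene Gm15738. The sources used here do not say whether the counting used strand, so reads of these neighbours may be included.

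SRF is a transcription factor that binds CArG boxes, and it needs a partner to activate most of its genes. The MRTFs are held in the cytoplasm by monomeric actin. When RhoA signalling drives actin into filaments they are released, enter the nucleus and switch on genes of actin, its filament-binding proteins and focal adhesions. The other partners of SRF, the ternary complex factors Elk1, Elk3 and Elk4, answer to MAP kinase signalling and serve immediate early genes such as Egr1. MRTF activity is therefore set largely by the location of the protein, which mRNA counts do not measure.

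Poly(A) RNA of cultured mouse melanoma cells was measured by QuantSeq 3′ sequencing in 20 groups of 2 libraries each. A B16-F10 Bmal1 knockout clone (KO) was set beside a B16-F10 control clone (ctr). YUMM2.1 cells (alleles include Braf V600E, Cdkn2a+/- and Bcat STA/+), YUMM2.1KO cells, which are the single Bmal1-null CRISPR clone aC3 of that line, and YUMM1.7 cells (alleles include Braf V600E and Cdkn2a-/-) each carried lentivirus with an empty vector (EV), wild-type Bmal1 (WT) or dHLH-Bmal1, a mutant from which the bHLH domain that contacts DNA was removed. The labels write bHLH or dH for this last construct. YUMM2.1-EV, -WT and -dHLH cells were also given a scramble hairpin (shNC) or 1 of 2 hairpins against Myh9, the heavy chain of non-muscle myosin IIA, named shMyh9#2 and shMyh9#4. The vectors also carried GFP, by which cells were sorted. Figure legends of the study call the libraries of several of these groups biological replicates, and whether those came from separate cultures or separate transductions is not given in the sources used here. The p-values test each difference against the spread between libraries of a group, whatever its source. That spread was pooled over all groups of a fit and drawn toward that of other genes.

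Total counts per library ran from 3643332 to 22970049, with a median of 10021164.5. Levels are given as CPM, reads scaled to a common total, after TMM scaling over all 40 libraries. The lowest count behind any value was 120 reads for Srf, 46 for Mrtfa and 222 for Mrtfb. Of 40 libraries, 12 resembled a library of another group more than their own partner. A supplementary table holding the same values lists YUMM2.1-EV 2 under a WT label and YUMM2.1-WT 1 under an EV label. The YUMM2.1 comparisons without a hairpin were therefore also run with these 2 labels exchanged. YUMM2.1-EV 1 was closest to YUMM2.1-WT 1 (correlation 0.944, against 0.775 with its own partner), and YUMM2.1-EV 2 to YUMM2.1-WT 2 (0.868). The gene Sox9 was at 18.4 and 19.7 CPM in the first pair and at 87.3 and 86.2 CPM in the second. These pairs also share a replicate number, and which labels are right was not tested. Melanocyte lineage markers summed to 19763 to 26055 CPM in B16-F10 and to at most 626 CPM in the other lines, where Mlana and Tyrp1 were at 0 in every library.

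Promoter sequence is shown because SRF binds DNA directly and its own gene has long been described as one of its targets. Windows of 250 bases before to 50 after each RefSeq start site (GRCm38.p6) were searched on both strands for the CArG box, the E-box CACGTG bound by Clock-Bmal1, the ETS core CCGGAA bound by ternary complex factors, and the AP-1 site TGANTCA. The stretches below run from position -150 to -31 relative to the start site, 5′ to 3′ on the strand of the gene, with matches in capitals.
Srf, chr17:46556193-46556312, minus strand: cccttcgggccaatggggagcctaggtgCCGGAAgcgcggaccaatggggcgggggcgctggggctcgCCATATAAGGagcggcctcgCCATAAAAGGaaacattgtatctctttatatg
Mrtfa, chr15:81190767-81190886, minus strand: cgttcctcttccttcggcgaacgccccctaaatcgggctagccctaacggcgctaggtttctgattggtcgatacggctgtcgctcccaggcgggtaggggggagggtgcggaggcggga
Mrtfb, chr16:13256331-13256450, plus strand: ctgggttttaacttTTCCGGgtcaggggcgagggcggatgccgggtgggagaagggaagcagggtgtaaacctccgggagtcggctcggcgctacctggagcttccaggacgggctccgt
Mrtfb, later start site, chr16:13358271-13358390, plus strand: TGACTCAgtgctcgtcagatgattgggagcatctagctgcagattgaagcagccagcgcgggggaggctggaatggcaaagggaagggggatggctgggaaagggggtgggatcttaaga

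The Srf window held 2 CArG boxes, CCATATAAGG at position -82 and CCATAAAAGG at -62, with an ETS core at -122. A CArG box was present in 535 of 32851 promoter windows (1.63%), and 2 or more in 6 windows of 5 genes, Srf among them with Dusp5, Ceacam11, Gm33934 and Gm39572. None of the 4 motifs was found in either Mrtfa window. Mrtfb had an ETS core at -136 of its first window and an AP-1 match at -150 of the window at its later start site. ETS cores were found in 14.9% of all windows, AP-1 matches in 7.81% and E-boxes in 7.15%. No member window held the E-box. These matches describe letters only, and no binding was measured here.

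Of the members, Srf varied most between groups. Its group means spanned 2.95-fold, from 28.3 ± 10.6 CPM (SD, n = 2) in YUMM2.1-dHLH shMyh9#4 to 83.5 ± 0.141 CPM (SD, n = 2) in YUMM1.7-dHLH. The 3 YUMM1.7 groups stood highest, each library between 63.7 and 84.1 CPM, followed by YUMM2.1-dHLH shNC at 59.5 and 59.6 CPM and by B16-F10. The YUMM2.1 groups without a hairpin and the YUMM2.1KO groups lay between 29.0 and 43.4 CPM. In this order of 20 groups, 4 of 19 neighbouring pairs had libraries that did not overlap, namely YUMM1.7-EV above YUMM1.7-WT, YUMM1.7-WT above YUMM2.1-dHLH shNC, YUMM2.1-dHLH above YUMM2.1KO-EV, and YUMM2.1-EV shMyh9#2 above YUMM2.1KO-WT.

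Mrtfa ranged from 10.2 ± 1.80 CPM (SD, n = 2) in YUMM2.1-EV to 19.7 ± 0.495 CPM (SD, n = 2) in YUMM1.7-EV, a span of 1.94-fold. Its order was close to continuous, with 1 of 19 neighbouring pairs separate. Mrtfb spanned 1.68-fold, from 37.2 ± 2.81 CPM (SD, n = 2) in YUMM2.1KO-WT to 62.3 ± 1.88 CPM (SD, n = 2) in YUMM2.1-WT shMyh9#4, with 0 of 19 neighbours separate. The YUMM1.7 groups, highest for Srf and among the highest for Mrtfa, ranked 17th to 19th of 20 for Mrtfb.

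The spread between partner libraries sets how far these orders can be read. The median absolute log2 ratio between the 2 libraries of a group was 0.11 for Srf, 0.17 for Mrtfa and 0.16 for Mrtfb. The largest was 0.78 for Srf in YUMM2.1-dHLH shMyh9#4, 0.64 for Mrtfa in YUMM2.1-EV shMyh9#2 and 0.54 for Mrtfb in B16-F10 KO. The SD of the 20 group means was 0.44 on the log2 scale for Srf, at percentile 61.8 of 16619 genes with enough counts. Those of Mrtfa (0.28, percentile 27) and Mrtfb (0.25, percentile 17.9) lay in the lower part of that distribution.

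**Figure D1:**
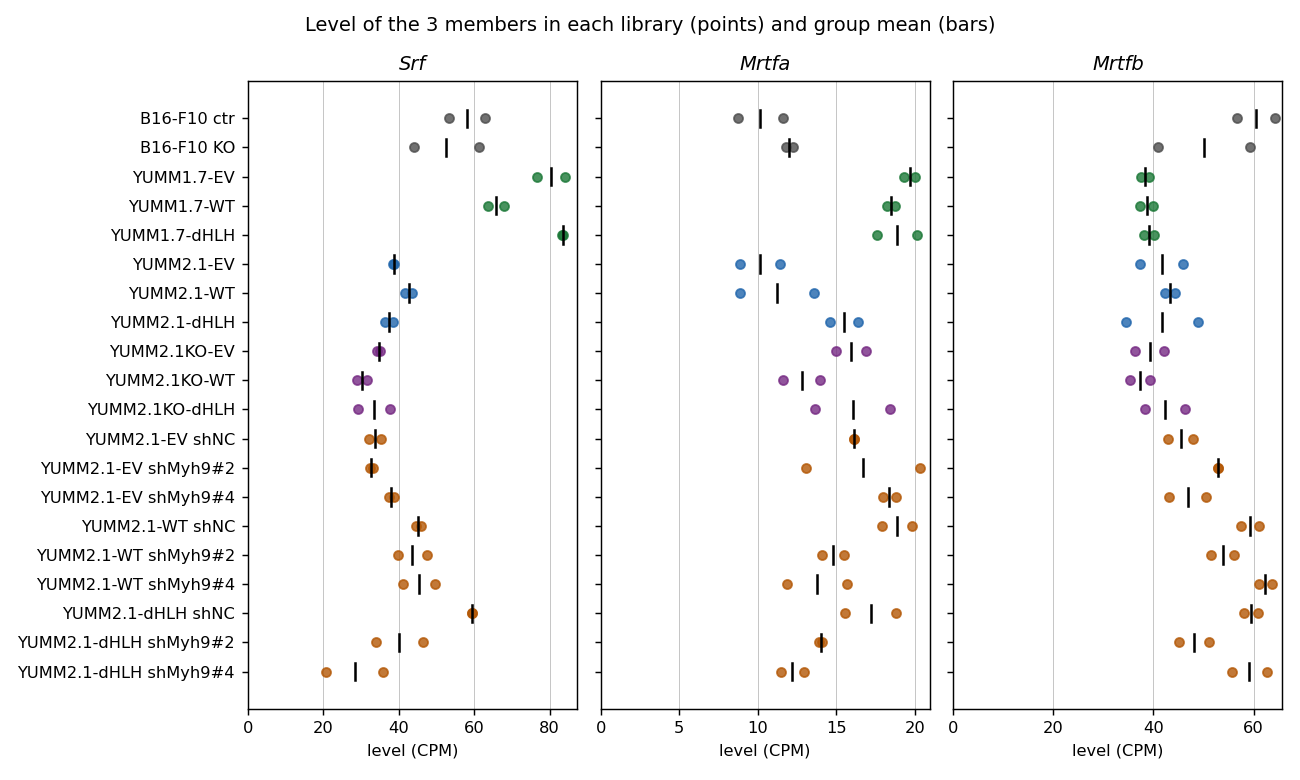
Level of Srf, Mrtfa and Mrtfb in CPM (x axis, linear, from 0) in each of the 40 libraries (points), by group (y axis), with bars at the group means of 2 libraries. The YUMM1.7 libraries sit between 63.7 and 84.1 CPM for Srf, above all other libraries, while for Mrtfb they lie between 37.4 and 40.1 CPM, near the bottom of the range.

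The cell lines carrying no Bmal1 construct answer how much of each gene the lines make. Srf was 2.07-fold higher in YUMM1.7-EV than in YUMM2.1-EV, and Mrtfa 1.93-fold higher. Srf stood at 84.1 and 76.8 CPM in the YUMM1.7-EV libraries against 38.6 and 38.7 CPM in YUMM2.1-EV, with no overlap (log2 fold change 1.05, SE 0.12, edgeR adjusted p = 8.37e-05). Mrtfa stood at 19.3 and 20.04 CPM against 8.89 and 11.4 CPM, again without overlap (0.95, SE 0.20, edgeR adjusted p = 0.00482). Mrtfb, at 39.1 and 37.5 CPM against 37.4 and 45.9 CPM, overlapped (-0.13, 95% interval -0.43 to 0.18, edgeR adjusted p = 0.512). In this comparison 37.1% of all genes tested were called, in either direction.

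B16-F10 ctr differed from both YUMM lines in another combination. Its Srf level, 53.2 and 62.9 CPM, was above YUMM2.1-EV (0.56, SE 0.12, edgeR adjusted p = 0.00259) and below YUMM1.7-EV (-0.49, SE 0.11, edgeR adjusted p = 0.00454). Mrtfb, at 64.3 and 56.8 CPM, was higher than in YUMM2.1-EV (0.51, SE 0.13, edgeR adjusted p = 0.00848) and than in YUMM1.7-EV (0.64, SE 0.13, edgeR adjusted p = 0.00241). Mrtfa, at 8.72 and 11.6 CPM, was lower than in YUMM1.7-EV (-0.97, SE 0.20, edgeR adjusted p = 0.00201) and overlapped YUMM2.1-EV (-0.02, 95% interval -0.47 to 0.44). These comparisons called 54.3% of genes against YUMM2.1-EV and 54.5% against YUMM1.7-EV. No empty vector or Bmal1 construct is named for the B16-F10 clones, so line, clone and vector cannot be told apart. Without B16-F10 ctr 1 the Mrtfb call against YUMM2.1-EV (edgeR adjusted p = 0.0701) and the Srf call against YUMM1.7-EV (0.0541) were lost, the latter also without YUMM1.7-EV 1 (0.0511).

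Loss of Bmal1 was sampled in 2 clones, and neither gave a call for a member. Each line had a single knockout clone, so loss of Bmal1 and clone cannot be told apart. The libraries labelled KO of B16-F10 had 44.0 and 61.2 CPM of Srf against 53.2 and 62.9 CPM in ctr, and 40.9 and 59.3 CPM of Mrtfb against 64.3 and 56.8 CPM. Both genes overlapped between the groups, since KO 2 stood with the control libraries and KO 1 below them. The differences were -0.15 for Srf (95% interval -0.72 to 0.41) and -0.28 for Mrtfb (-0.85 to 0.30), with 0.44% of genes called. Mrtfa was at 12.2 and 11.8 CPM in KO against 8.72 and 11.6 CPM in ctr, without overlap (0.23, 95% interval -0.40 to 0.86). Without KO 2, Srf (-0.41, edgeR adjusted p = 0.019) and Mrtfb (-0.57, edgeR adjusted p = 0.000376) were called lower, so 1 library decides these values. The Bmal1 gene Arntl was at 13.3 and 11.5 CPM in KO and 15.2 and 10.7 CPM in ctr, although a 3′ tag away from an edit does not check a knockout.

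In YUMM2.1KO-EV, Mrtfa was at 15.02 and 16.9 CPM, above the 8.89 and 11.4 CPM of YUMM2.1-EV without overlap. The difference of 0.65 (SE 0.21, 95% interval 0.19 to 1.12) did not pass over all genes (edgeR adjusted p = 0.174, 1.75% of genes called). With the 2 doubtful labels exchanged it was 0.84 and passed (edgeR adjusted p = 0.00967, 9.76% called). Srf, at 34.3 and 35.1 CPM against 38.6 and 38.7 CPM, differed by -0.16 (95% interval -0.43 to 0.11). YUMM2.1-EV cells are not described as a clone, so differences of YUMM2.1KO-EV from them may come from cloning as well as from loss of Bmal1. This was not tested.

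The Bmal1 constructs in cells without a hairpin ask whether added Bmal1, with or without its DNA binding domain, goes with more SRF or MRTF mRNA. The study checked overexpression by immunoblot. Arntl of WT overlapped EV in YUMM2.1 (13.9 and 18.3 against 15.9 and 13.9 CPM). It was lower in YUMM2.1KO (18.2 and 17.5 against 33.1 and 30.5 CPM) and higher in YUMM1.7 (14.7 and 12.5 against 8.47 and 8.61 CPM). Under dHLH Arntl lay above EV in YUMM2.1 and YUMM1.7 and overlapped EV in YUMM2.1KO. Whether 3′ tags counted for Arntl include transcripts of the construct is not given in the sources used here. These levels therefore do not check overexpression. Mrtfa in YUMM2.1-dHLH stood at 14.6 and 16.4 CPM, above both EV libraries (8.89 and 11.4 CPM) and both WT libraries (8.89 and 13.6 CPM). The difference from EV was 0.62 (SE 0.27, 95% interval -0.02 to 1.25, edgeR adjusted p = 0.19), where 13.2% of genes were called. This difference was 0.80 with the labels exchanged (edgeR adjusted p = 0.0155, 28.7% called) and missed the threshold with the replicate number as a block (edgeR adjusted p = 0.0513). Against WT the Mrtfa difference was 0.47 (95% interval -0.16 to 1.11, 13% called).

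No Srf difference was called between the constructs in YUMM2.1 without a hairpin. Its levels were 38.6 and 38.7 CPM in EV, 43.4 and 41.8 CPM in WT and 38.4 and 36.4 CPM in dHLH. The intervals of the log2 difference from EV, -0.17 to 0.45 for WT and -0.36 to 0.27 for dHLH, exclude a doubling or a halving. Mrtfb ranged from 34.6 to 48.9 CPM over these 6 libraries, and its groups overlapped. For WT against EV, 0% of genes were called by edgeR, and 0.705% with the labels exchanged, no member among them.

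In the Bmal1-null clone no member was called under either construct. Srf was 34.3 and 35.1 CPM in YUMM2.1KO-EV, 29.0 and 31.6 CPM in YUMM2.1KO-WT and 37.8 and 29.2 CPM in YUMM2.1KO-dHLH. WT lay below EV in both libraries (-0.20, 95% interval -0.48 to 0.08), against 11.2% of genes called, and dHLH overlapped EV (-0.06, -0.34 to 0.22, 10.9% called). Mrtfa fitted -0.32 for WT (95% interval -0.72 to 0.08) and 0.00 for dHLH. Between dHLH and WT 0.877% of genes were called and no member was among them.

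YUMM1.7 gave the smallest error and 1 call. Srf was at 63.7 and 68.0 CPM in YUMM1.7-WT, below 84.1 and 76.8 CPM in EV and 83.6 and 83.4 CPM in dHLH, with no overlap on either side. The difference of dHLH from WT was 0.34 (SE 0.08, edgeR adjusted p = 0.0262, 2.57% of genes called). That of WT from EV, -0.28 (SE 0.08, unadjusted p = 0.00218), did not pass over all genes (edgeR adjusted p = 0.208, 0.138% called). dHLH and EV overlapped (0.06, 95% interval -0.10 to 0.22, 0.63% called). Leaving out YUMM1.7-WT 1 or either dHLH library ended the dHLH against WT call (edgeR adjusted p = 0.118, 0.124 and 0.169), as did a single fit of all libraries (edgeR adjusted p = 1). The differences of Mrtfa and Mrtfb lay between -0.08 and 0.04 on the log2 scale in the 3 YUMM1.7 comparisons.

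No member's construct effect was shown to differ between lines. The test of the difference between YUMM1.7 and YUMM2.1 gave -0.42 for Srf under WT (95% interval -0.76 to -0.08, edgeR adjusted p = 1, 0% of genes called) and -0.67 for Mrtfa under dHLH (-1.29 to -0.05, edgeR adjusted p = 0.159, 12.4% called). Between YUMM2.1KO and YUMM2.1 the Mrtfa difference under dHLH was -0.60 (-1.23 to 0.02, edgeR adjusted p = 0.194, 15.5% called), and under WT it was -0.45 (-1.09 to 0.18, 0.208% called). With the labels exchanged both dHLH differences of Mrtfa passed, at -0.85 (edgeR adjusted p = 0.0169, 20.6% called) and -0.79 (0.0245, 23.6% called).

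**Figure D2:**
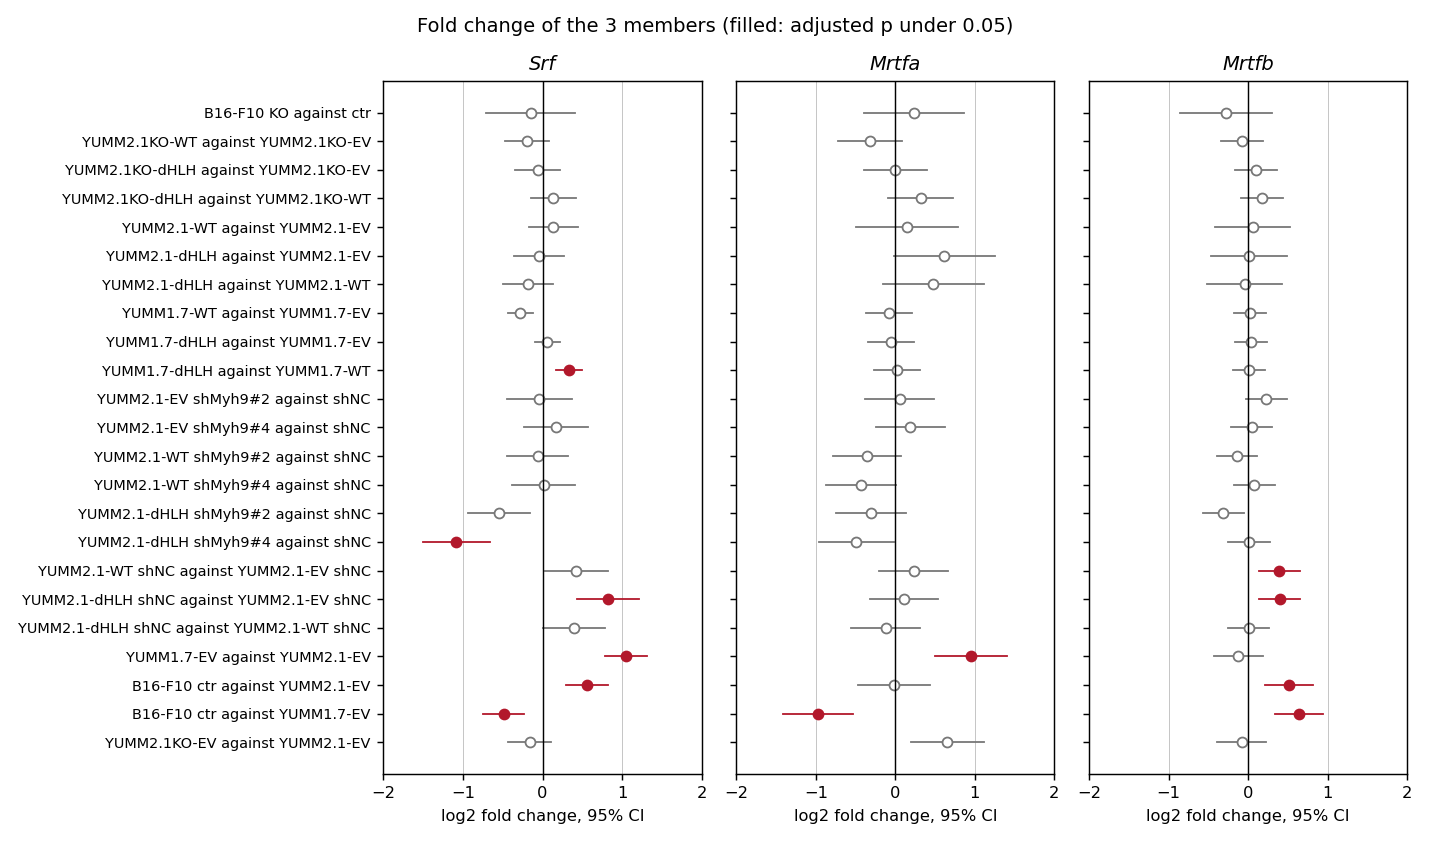
Log2 fold change of Srf, Mrtfa and Mrtfb (x axis, with its 95% interval) in 23 comparisons of 2 groups of 2 libraries (y axis); filled points have an edgeR adjusted p under 0.05. Srf was called in 6 comparisons (4 higher, 2 lower), Mrtfa in 2 (1 higher, 1 lower) and Mrtfb in 4 (all higher). Over these comparisons the share of all genes called ran from 0% (YUMM2.1-WT against EV) to 54.5% (B16-F10 ctr against YUMM1.7-EV).

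In YUMM2.1 cells with a hairpin, Myh9 was checked first. It fell in all 6 knockdown comparisons, most with shMyh9#2. In EV cells it went from 703 and 666 CPM with shNC to 229 and 248 CPM with shMyh9#2 and 492 and 466 CPM with shMyh9#4. In WT cells it went from 994 and 949 CPM to 234 and 241 CPM, and to 538 and 477 CPM. In dHLH cells it went from 908 and 877 CPM to 291 and 264 CPM, and to 679 and 636 CPM. The order of the 2 hairpins was the same in each construct, with no overlap.

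Among the scramble hairpin groups, Srf rose from EV to dHLH. The shNC libraries held 32.1 and 35.4 CPM of Srf with EV, 44.5 and 46.0 CPM with WT and 59.5 and 59.6 CPM with dHLH, and no groups overlapped. dHLH was 1.77-fold above EV (0.82, SE 0.19, edgeR adjusted p = 0.00317, 26.4% of genes called). WT lay between, at 0.43 above EV (SE 0.19, edgeR adjusted p = 0.117, 22.3% called) and 0.40 below dHLH (95% interval of the difference 0.01 to 0.79, edgeR adjusted p = 0.365, 1.91% called).

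Mrtfb was also higher with both constructs. It stood at 47.9 and 43.0 CPM in EV shNC, 61.1 and 57.5 CPM in WT shNC and 58.1 and 60.8 CPM in dHLH shNC, so both construct groups lay above EV and overlapped each other. WT differed from EV by 0.39 (SE 0.12, edgeR adjusted p = 0.029) and dHLH by 0.39 (SE 0.12, edgeR adjusted p = 0.023). The WT call was lost on leaving out any 1 of its 4 libraries (edgeR adjusted p from 0.055 to 0.23), and the dHLH call without EV shNC 2 or either dHLH shNC library (0.0694 to 0.192). Without a filter on low counts neither passed (0.0874 and 0.0815). Mrtfa, between 15.6 and 19.9 CPM in these 6 libraries, overlapped between dHLH and EV, and its WT libraries lay above EV by 0.23 (95% interval -0.21 to 0.66).

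The Srf response to dHLH differed between cells with shNC and cells without a hairpin. It was 0.82 with shNC and -0.04 without, and the difference, fitted in 1 model of 12 libraries, was 0.90 (SE 0.16, edgeR adjusted p = 0.0409, 0.461% of genes called). The hairpin cells had also been selected with puromycin and form a separate set of libraries. Hairpin vector, selection and any difference in culture or preparation between the sets therefore cannot be told apart. The call was lost on leaving out any 1 of the 8 libraries (edgeR adjusted p from 0.063 to 0.195), while the difference stayed between 0.83 and 0.97. The corresponding difference for WT was 0.30 for Srf (95% interval -0.05 to 0.66, 5.06% called), and Mrtfb gave 0.42 under dHLH (-0.09 to 0.93). The neural crest factor Sox10 moved in the same cells, at 330 and 334 CPM in EV shNC, 98.7 and 99.9 CPM in WT shNC and 22.7 and 26.1 CPM in dHLH shNC. Without a hairpin it also fell in dHLH, from 502 and 484 CPM to 66.3 and 72.9 CPM, beside an Srf difference from EV of -0.04 that was not called. The part of this cell state in the Srf levels was not tested.

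In EV and WT cells no member was called under either Myh9 hairpin. With EV, Srf was 32.1 and 35.4 CPM under shNC, 32.3 and 33.2 CPM under shMyh9#2 (-0.04, 95% interval -0.44 to 0.36, 6.65% of genes called) and 38.8 and 37.3 CPM under shMyh9#4 (0.17, -0.23 to 0.57, 1.71% called). With WT it was 44.5 and 46.0 CPM, then 39.8 and 47.4 CPM (-0.06, -0.45 to 0.33, 4.76% called) and 41.1 and 49.7 CPM (0.01, -0.38 to 0.41, 0.236% called). Mrtfa in WT cells was below shNC under both hairpins, at 15.5 and 14.1 CPM and at 11.9 and 15.7 CPM against 19.9 and 17.95 CPM, without overlap. Neither difference passed (-0.35 and -0.43, edgeR adjusted p = 0.387 and 0.426).

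In dHLH cells Srf fell under shMyh9#4. Srf was at 59.5 and 59.6 CPM under shNC, 34.0 and 46.5 CPM under shMyh9#2 and 35.8 and 20.9 CPM under shMyh9#4, with both hairpin groups below shNC. Under shMyh9#4 the fold was 0.472 (log2 -1.08, SE 0.20, edgeR adjusted p = 0.0024, 15.1% of genes called). Under shMyh9#2, the hairpin that left less Myh9, the difference was -0.55 (SE 0.19, unadjusted p = 0.00888, edgeR adjusted p = 0.269, 0.559% called). The shMyh9#4 libraries held the fewest Srf reads of these, 127 and 120, and differed from each other by 0.78 on the log2 scale. Without dHLH shMyh9#4 2 the value was -0.72 and no longer passed (edgeR adjusted p = 0.0814).

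The shMyh9#4 effect on Srf was also tested between constructs. It was lower in dHLH than in EV cells by 1.25 on the log2 scale (-1.25, SE 0.28, edgeR adjusted p = 0.0107, 8.51% of genes called), and by -0.89 without dHLH shMyh9#4 2 (edgeR adjusted p = 0.0803). Between WT and EV cells the difference was -0.16 (95% interval -0.72 to 0.41, 0.741% called). For shMyh9#2 the Srf difference was -0.51 between dHLH and EV (-1.07 to 0.05, edgeR adjusted p = 0.357, 3.29% called) and -0.02 between WT and EV (-0.58 to 0.54, 5.18% called).

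Neither coactivator was called in dHLH cells under a hairpin. Mrtfb in dHLH cells was 58.1 and 60.8 CPM under shNC, 51.1 and 45.2 CPM under shMyh9#2 (-0.32, 95% interval -0.57 to -0.06, edgeR adjusted p = 0.354) and 62.6 and 55.6 CPM under shMyh9#4 (0.01, -0.25 to 0.27). Mrtfa was 18.8 and 15.6 CPM, then 13.9 and 14.1 CPM, then 13.0 and 11.5 CPM. Its groups under the hairpins lay below shNC, by -0.31 and by -0.49 (edgeR adjusted p = 0.678 and 0.146), and neither passed.

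**Figure D3:**
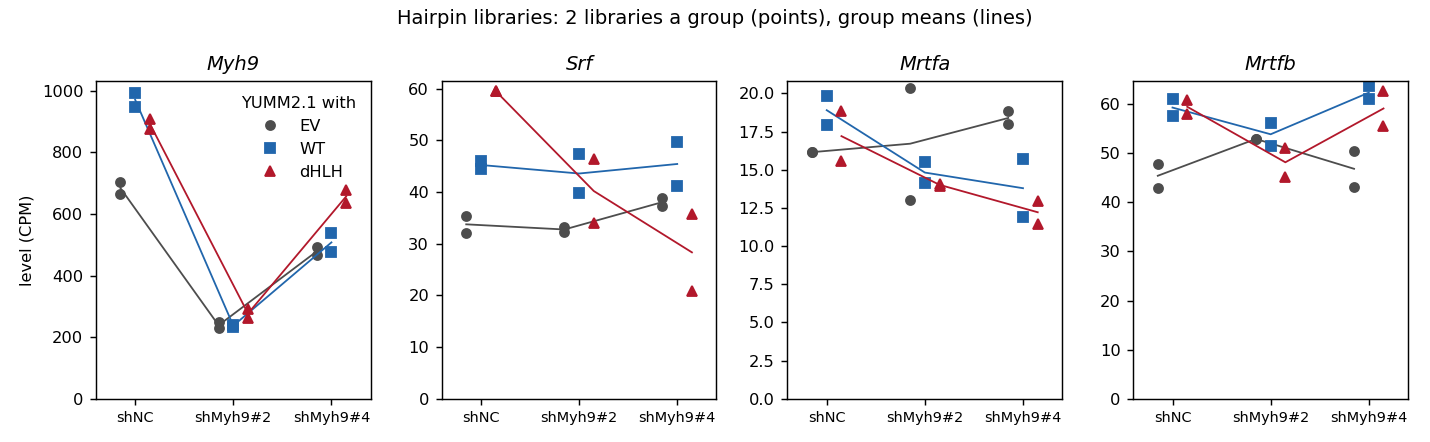
Level in CPM (y axis, linear, from 0) of Myh9, Srf, Mrtfa and Mrtfb in the 18 hairpin libraries, by hairpin (x axis) and construct (colour and shape); points are libraries and lines join means of 2. Myh9 falls with both hairpins in every construct, while in dHLH cells Srf lies below its shNC level of 59.5 and 59.6 CPM under both. In EV and WT cells its points lie between 32.1 and 49.7 CPM.

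Genes known to answer to MRTF-SRF were described from a list of 34, of which 29 were tested in at least 1 comparison; Actg2, Cnn1, Fhl1, Tagln and Vil1 were too low in all. The list holds Myh9 itself, and whether the listed genes changed through MRTF-SRF here was not tested. CArG boxes stood in the promoter windows of 8 of the 27 listed genes that had one (Actg1, Cnn2, Fhl1, Fhl2, Lima1, Myl9, Vcl and Vil1). In YUMM1.7-EV against YUMM2.1-EV, where Srf and Mrtfa were higher, 14 of 29 rose and 6 fell, where 17.8% of all genes rose and 19.3% fell. The list median was 0.35 against 0 for all genes. The LIM protein gene Fhl2 went from 0.083 and 0.216 CPM in YUMM2.1-EV to 22.9 and 28.0 CPM, and the tropomyosin gene Tpm2 from 0.332 and 2.48 CPM to 161 and 149.6 CPM. The filamin gene Flnc went from 0.664 and 1.83 CPM to 47.7 and 42.4 CPM, and the alpha-actinin gene Actn1 rose by 1.30 on the log2 scale. The lowest of these levels rest on few reads.

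In B16-F10 ctr most listed genes were lower. Compared with YUMM2.1-EV, 23 of 29 fell and 3 rose (29.2% and 25% of all genes), with a median of -1.15 against -0.01 for all genes, although Srf and Mrtfb were higher there. Tagln2, a calponin family gene, went from 456 and 558 CPM to 4.099 and 2.67 CPM, and the focal adhesion gene Vcl from 128 and 118 CPM to 16.5 and 16.2 CPM. Tpm4 (-1.70) and Cnn2 (-2.05) also fell. Against YUMM1.7-EV 23 fell and 2 rose (28.2% and 26.3% of all genes).

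Among the constructs without a hairpin, listed genes rose in YUMM2.1-dHLH, where Srf was not called. Of 28 tested, 10 rose and 1 fell against EV (6.51% and 6.72% of all genes), with a median of 0.56 against -0.01 for all genes. Ankrd1, a cardiac ankyrin repeat gene, went from 0.415 and 2.48 CPM to 50.4 and 44.7 CPM (5.12, SE 0.94, edgeR adjusted p = 0.0161), and Thbs1, which encodes thrombospondin 1, from 6.64 and 7.98 CPM to 40.9 and 33.1 CPM (2.35, SE 0.25, edgeR adjusted p = 0.00291). Cnn2 rose (0.99) and Lima1 fell (-0.83). With the labels exchanged 17 rose and 2 fell, where 28.7% of all genes were called in either direction. With 1 library left out, 4 listed genes were called without YUMM2.1-EV 1 or YUMM2.1-dHLH 1, 6 without YUMM2.1-dHLH 2 and 9 without YUMM2.1-EV 2. For WT against EV 0 of 28 were called, and 2 with the labels exchanged (0.705% of all genes). In YUMM1.7, dHLH against WT gave 2 higher, Actb (0.25) and Acta2 (0.48), and 1 lower, Actn1 (-0.22), of 27 (1.08% and 1.49% of all genes). In YUMM2.1KO no listed gene rose under either construct, where 4.92% of all genes rose under WT and 4.79% under dHLH. There, 3 of 22 listed genes fell under WT (6.28% of all genes) and 2 under dHLH (6.09%). The WT count was 0 without YUMM2.1KO-EV 1 or YUMM2.1KO-WT 1 and 1 without either of their partners, and the dHLH count ran from 0 (without YUMM2.1KO-EV 2) to 3.

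With shNC, Srf was called higher under dHLH and not under WT. Mrtfb was called higher under both, in calls that leaving out 1 library could end. More listed genes rose than fell under both constructs. Under WT 15 of 29 rose and 1 fell (11.7% and 10.6% of all genes), with a median of 0.49 against 0.02 for all genes. Under dHLH 14 rose and 1 fell (13.9% and 12.5% of all genes), with a median of 0.42 against 0.02. Ankrd1 went from 4.94 and 4.71 CPM in EV shNC to 44.1 and 41.6 CPM with WT and 75.3 and 74.8 CPM with dHLH. Tgfb1i1, which encodes the focal adhesion protein Hic-5, went from 6.54 and 4.38 CPM to 47.5 and 65.0 CPM and to 65.7 and 65.7 CPM. Thbs1 and Cnn2 completed the 4 with the smallest p under both constructs, at 1.84 and 0.99 with WT and at 2.23 and 1.28 with dHLH. Myh9 was among those that rose. These comparisons share the EV shNC libraries.

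Under the Myh9 hairpins few listed genes were called, and Myh9 was among those that fell each time. In EV cells Ankrd1 and Tgfb1i1 rose under shMyh9#2 (2.42 and 2.07) and under shMyh9#4 (1.60 and 1.90), as did Tpm2 from at most 0.37 CPM, beside Srf levels that were not called. These 3 were the listed genes that rose, where 4.2% of all genes rose and 2.46% fell under shMyh9#2, and 1.45% and 0.256% under shMyh9#4. Of the 4 genes called in either direction under shMyh9#4, Myh9 included, 2 were called without EV shMyh9#4 2. In WT cells under shMyh9#2, 2 rose and 4 fell (2.35% and 2.41% of all genes), Cfl1 (-0.55), which encodes the actin-severing protein cofilin, and Cald1 (-0.49) among the latter. These 6 calls became 2 without WT shMyh9#2 1, 3 without WT shNC 2, and 4 without either of the other libraries. Under dHLH shMyh9#4, with Srf lower, 6 of 29 fell and 2 rose (8.86% and 6.28% of all genes), with a median of -0.30 against 0.00. Ankrd1 fell from 75.3 and 74.8 CPM to 26.5 and 27.0 CPM (-1.47, SE 0.15, edgeR adjusted p = 4e-05), Actg1 fell (-1.80), Cfl1 fell (-0.50) and Actb rose (0.50). Actb and Actg1 encode near-identical actins, so reads could be split between them. Without dHLH shMyh9#4 2, 3 listed genes were called, and without dHLH shNC 1, 5 were. Under dHLH shMyh9#2 Myh9 alone was called of 29 (0.263% of all genes fell and 0.296% rose).

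Immediate early genes of the ternary complex factor branch were counted in the same comparisons. Of 12 listed, 11 were tested with shNC, and 5 fell and 1 rose under each construct, with medians of -1.43 for WT and -1.03 for dHLH. Of all genes, 10.6% fell and 11.7% rose under WT, and 12.5% fell and 13.9% rose under dHLH. Under WT, Egr1 fell from 31.1 and 34.4 CPM to 3.67 and 5.59 CPM, and Dusp5, a MAP kinase phosphatase gene (-1.59), Fosl1 (-1.43) and Nr4a1 (-2.94) fell too. Under dHLH, Junb rose (1.04) while Dusp5 (-1.20), Nr4a1 (-3.45) and Egr1 (-1.03) fell. In YUMM2.1-dHLH without a hairpin, Egr2, Egr1 and Nr4a1 fell and Junb rose among 10 tested (6.72% of all genes fell and 6.51% rose). These 4 calls became 1 without YUMM2.1-EV 1 and 2 without YUMM2.1-dHLH 1. Under dHLH shMyh9#4 Junb (-1.30) and Fosl1 (-1.23) fell (8.86% of all genes), and 1 of the list was called without dHLH shNC 1 or dHLH shMyh9#4 2. YUMM1.7-EV had 5 of 11 higher and 3 lower than YUMM2.1-EV (17.8% and 19.3% of all genes), with Fosl1 at 176 and 164 CPM against 37.8 and 42.4 CPM. Dusp5, like Srf, held 2 or more CArG boxes in a promoter window.

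**Figure D4:**
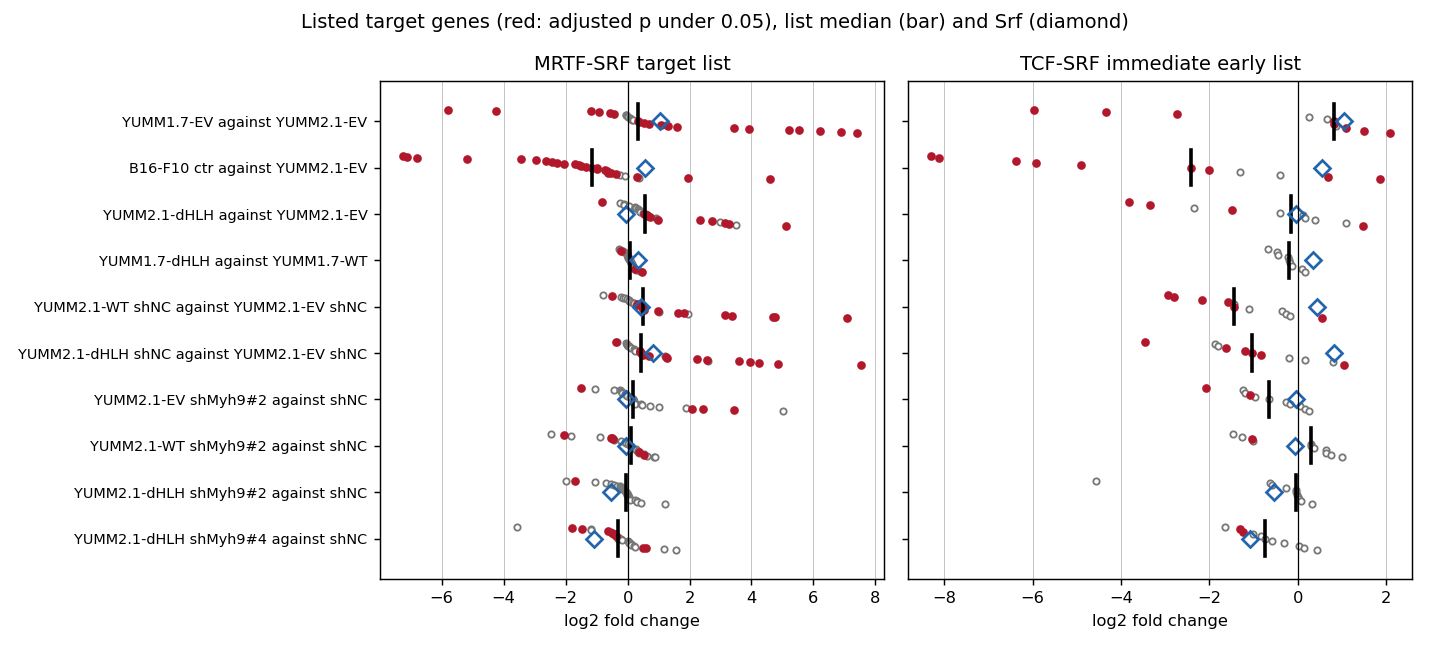
Log2 fold change (x axis) of the listed MRTF-SRF target genes (left) and immediate early genes (right) in 10 comparisons (y axis); each circle is a gene, red where the edgeR adjusted p is under 0.05, the bar is the list median and the diamond is Srf. In B16-F10 ctr against YUMM2.1-EV the medians are -1.15 and -2.42 with Srf at 0.56, and with shNC the target medians are 0.49 and 0.42 while the immediate early medians are -1.43 and -1.03.

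Other partners of SRF and other myocardin family genes were few. Of Elk1, Elk3 and Elk4, Elk3 was lower in dHLH shNC than in EV shNC (54.8 and 53.1 CPM against 90.0 and 78.5 CPM, -0.63, edgeR adjusted p = 0.000453), and Elk4 was lower under dHLH shMyh9#4 (-1.60, SE 0.36, edgeR adjusted p = 0.00742). Mamstr, a myocardin family gene not counted here as a partner of SRF, was tested where Myocd was not. It was at 2.097 and 3.03 CPM in EV shNC, 9.79 and 13.4 CPM in WT shNC (2.17, edgeR adjusted p = 6.28e-05) and 8.89 and 7.95 CPM in dHLH shNC (1.72, edgeR adjusted p = 0.000458). Its level was 32.3 and 30.2 CPM in YUMM1.7-EV and at most 0.048 CPM in B16-F10 ctr.

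Of 27 regulators of the actin and RhoA input to MRTF, 5 rose and 6 fell under WT with shNC (11.7% and 10.6% of all genes), and 4 rose and 7 fell under dHLH (13.9% and 12.5% of all genes). The share that rose under dHLH, 4 of 27, was near that of all genes. Scai, a nuclear inhibitor of MRTF, rose under both, from 25.5 and 28.8 CPM to 63.5 and 55.0 CPM with WT (1.13, SE 0.15, edgeR adjusted p = 4.15e-05) and to 51.8 and 59.7 CPM with dHLH (1.04, SE 0.15, edgeR adjusted p = 6.3e-05). Fhod1, a formin gene, rose with WT (1.06), and Arhgef2, a RhoA exchange factor gene, rose with dHLH (0.58). Mical2, whose product oxidises nuclear actin, fell by 0.61 and 0.60, Rhob fell by 0.66 with WT, and Phactr1, which encodes another protein regulated by monomeric actin, fell by 1.48 with dHLH. Under dHLH shMyh9#4, 2 rose and 6 fell (6.28% and 8.86% of all genes), the latter led by the actin monomer binding genes Tmsb10 (-1.53) and Tmsb4x (-2.91), from 818 and 670 CPM to 125 and 72.5 CPM. The gene Cfl1 belongs to this list and to the target list.

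Over the 20 group means of log2 CPM, Pearson's r was 0.33 between Srf and Mrtfa, -0.09 between Srf and Mrtfb and -0.20 between Mrtfa and Mrtfb. Over the 9 hairpin groups it was 0.42, 0.35 and -0.23. Groups share cell lines and constructs, so these values only describe the series. Among 14143 genes, those closest to Srf over 20 groups were Ankrd10 (r 0.91), Tns2, Dimt1, Gpsm2 and Ngrn; to Mrtfa, Map1s (0.87), Ppp1r14b, Zfp593, Dpp3 and Qars; and to Mrtfb, Hoxb9 (0.94), Ppp1r12c, Slc38a7, Mia2 and Dzip1l. Over the 9 hairpin groups, among 13370 genes, they were Ap5m1 (0.94), Il15, Fbxl5, Bco1 and Cbx7 for Srf; Mrpl36 (0.96), Szrd1, Cfl1, Arrb2 and Gm28791 for Mrtfa; and Aktip (0.98), Lrrc45, Tmem177, B230219D22Rik and Tubgcp2 for Mrtfb.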

How the data were processed

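QuantSeq FWD libraries were made from 100 ng of DNaseI-treated RNA and sequenced as single reads. The authors aligned reads to mm10 with bowtie2 and estimated counts per gene with RSEM (1.2.3 in the submitters' processing notes), and the deposited values are these estimated counts as whole numbers. Strand use and the Ensembl release are not given in the sources used here. Symbols were matched for 99.63% of 51789 genes.

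Comparisons used edgeR 4.0.16 in R 4.3.3 (quasi-likelihood F test, TMM, filterByExpr, Benjamini-Hochberg over all genes tested, threshold 0.05, 2-sided), fitted within each line or clone, with the hairpin libraries apart, and tested on simulated data. Lines were compared in 1 fit of their libraries without a Bmal1 construct, and effects between lines in 1 fit of the YUMM libraries without a hairpin. A gene is called where its adjusted p is under 0.05. Permutation of 2 against 2 libraries cannot go under p = 0.333. CPM follow TMM over 40 libraries. Intervals are 95%. Alternatives were DESeq2 1.42.0 (size factors; Wald test), no filter, a mean of at least 10 counts, a replicate block, 1 fit of all libraries, leaving out libraries, and exchange of 2 labels. Same-numbered libraries deviated alike in YUMM2.1 without a hairpin (correlation of deviations 0.203 to 0.453), by the data and not the labels. With 2 libraries a group, both replicate numbers of a pair of groups give the same correlation. Exchanged labels of YUMM2.1-EV 2 and YUMM2.1-WT 1 could also make EV and WT deviate alike, which cannot be told apart from pairing. Beyond the members, Myh9 and Arntl, genes were named as the at most 4 per list with the smallest adjusted p, and the 5 most correlated per member over genes with a mean of at least 10 counts. The members and lists were chosen with earlier results of these data known.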

Additional observations from a re-analysis of the deposited data

Results flagged for a closer look

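Both results were taken up because the same contrast differed between groups in a test of the difference itself. Both contrasts were added after seeing the data. The shMyh9#4 effect on Srf was lower in YUMM2.1-dHLH than in YUMM2.1-EV cells by -1.25 (SE 0.28, edgeR adjusted p = 0.0107), with both dHLH shMyh9#4 libraries below both dHLH shNC libraries and the EV libraries above theirs. It was -0.89 (edgeR adjusted p = 0.0803) without dHLH shMyh9#4 2, the library with 120 Srf reads.

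The dHLH-Bmal1 effect on Srf was higher with shNC than without a hairpin by 0.90 (SE 0.16, edgeR adjusted p = 0.0409). It was 0.98 with the labels of YUMM2.1-EV 2 and YUMM2.1-WT 1 exchanged (edgeR adjusted p = 0.0031), and 0.90 with both libraries left out (edgeR adjusted p = 0.051). The hairpin vector, the puromycin selection and any difference in culture or preparation of those cells cannot be told apart in it.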

How the results depend on the processing

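Counts of called members moved in 12 of 223 values under alternatives that keep or exchange libraries, and in 22 of 172 with 1 library left out. Without the filter on low counts, WT shNC against EV shNC had 0 members called (1 in the reported fit) and dHLH shNC against EV shNC 1 (2). In 1 fit of all libraries, these had 0 and 1, YUMM2.1-dHLH against EV had 1 (0), YUMM1.7-dHLH against WT 0 (1), and the shNC difference of the dHLH effect 0 (1). With the labels of YUMM2.1-EV 2 and YUMM2.1-WT 1 exchanged, YUMM2.1-dHLH against EV, YUMM2.1KO-EV against YUMM2.1-EV and the dHLH differences of YUMM2.1KO and of YUMM1.7 from YUMM2.1 each had 1 (0), Mrtfa each time. With both left out, the shNC difference had 0 (1). The cause was not tested.

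With 1 library left out, counts ran from 0 to 2 for B16-F10 KO against ctr (0), 0 to 1 for YUMM1.7-dHLH against WT (1), 0 to 0 for WT shNC against EV shNC (1), 1 to 2 for dHLH shNC against EV shNC (2), 0 to 1 for dHLH shMyh9#4 against shNC (1) and its difference from EV (1), 0 to 0 for the shNC difference (1), 1 to 2 for B16-F10 ctr against YUMM2.1-EV (2) and 2 to 3 against YUMM1.7-EV (3). A lone library was assumed to vary like the other groups.

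The replicate block changed no call of a member, and the Mrtfa difference of YUMM2.1-dHLH from EV under it was 0.62 (edgeR adjusted p = 0.0513). DESeq2 size factors moved group means by at most 3.03%. Depth limits Mrtfa most, with 46 to 300 reads per library.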
